A study of Rattus norvegicus with 32 samples.

Results

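The 10 genes described here encode the insulin-like growth factor (IGF) system: the ligands Igf1 and Igf2, the receptor Igf1r and the binding proteins Igfbp1 to Igfbp7. They were taken as the rows of the deposited table of uterine RNA-seq counts whose NCBI gene identifiers carry these rat symbols, 10 of 17327 genes. All 10 passed the filter on low counts, as did 13312 genes in all. Igfbp1, with 1 to 9 counts in the control libraries, passed it only through exposed libraries. The rule itself used no measured value, but the genes were chosen with earlier results of these data known. Counts of members beside the share of all genes are therefore descriptions.

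The uterus of Sprague-Dawley rats from the NCTR colony was sampled at PND365, the postnatal day that ended the study. Dams were dosed by gavage from gestation day 6 until labor, and their pups were then dosed directly from postnatal day 1 until the end. The groups were a vehicle control (0.3% carboxymethylcellulose), EE2 (ethinyl estradiol, an orally active estrogen used in contraceptives) at 0.05 or 0.5 µg/kg/day, and bisphenol A (BPA, a plastics monomer that binds estrogen receptors) at 2.5, 25, 250, 2500 or 25000 µg/kg/day, all per body weight. Each group held 4 libraries of whole uterine RNA, 32 in all, and groups are named below by agent and dose. No genetic alteration is named in the labels, and neither is the stage of the estrous cycle, the animal or the litter of a library.

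IGF1 and IGF2 act through the receptor tyrosine kinase encoded by Igf1r, which signals through insulin receptor substrates to PI3 kinase and AKT. The binding proteins hold the ligands in blood and tissue, and proteases release them. In the rodent uterus estrogen is known to raise Igf1, and stromal IGF1 to drive growth of the epithelium.

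Total counts were between 11777809 and 24661856 per library, and in the shallowest library 0.255 CPM is what 3 counts amount to (read counts per library scaled to a common total, with sizes adjusted by TMM). Levels are given in CPM, with no correction for transcript length, so they are compared within a gene and not between genes. In whole tissue, fewer cells of a type and less RNA per cell cannot be told apart. Smooth muscle, stromal and epithelial markers were present in every group, which fits the labelled tissue. Markers of ciliated epithelium, listed as markers of oviduct, summed to 2.74 to 4.66 CPM in control and 28.8 to 52.3 CPM at BPA 25. They reached 527 and 383 CPM in BPA 2.5 libraries 1 and 3 and 152 CPM in BPA 2500 library 2. Whether oviduct was sampled with the uterus was not tested. BPA 2.5 libraries 1 and 3, BPA 250 library 1 and BPA 25000 library 3 stood apart, with median correlations with the other libraries of 0.892, 0.911, 0.911 and 0.926, and all others at 0.938 or above. Member calls against control at a dose that changed when they were left out are given with and without them. The estrogen receptor gene Esr1 was at 146 ± 33.2 CPM in control (SD, n = 4) and at group means of 124 to 153 CPM in the exposed groups, with 0 calls in any comparison with control.

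The upstream sequences of the 5 members that passed a test in any comparison are shown first, because the levels of these genes carry the results and a few short motifs differ between them. Each is the 250 bases before the annotated start of the gene in RefSeq, build GRCr8, read 5′ to 3′ on the strand of the gene, with capitals for a motif match. Igf1 lies on the plus strand (chr7:24172282-24172531), Igfbp1 on the plus strand (chr14:86261027-86261276), Igfbp3 on the minus strand (chr14:86277945-86278194), Igfbp5 on the minus strand (chr9:81914188-81914437) and Igfbp7 on the plus strand (chr14:31091486-31091735).
Igf1: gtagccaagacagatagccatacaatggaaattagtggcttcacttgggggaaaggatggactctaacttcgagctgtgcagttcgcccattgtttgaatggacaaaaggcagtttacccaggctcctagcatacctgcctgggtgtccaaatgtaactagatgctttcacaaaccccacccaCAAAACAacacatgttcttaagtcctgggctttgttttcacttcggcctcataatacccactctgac
Igfbp1: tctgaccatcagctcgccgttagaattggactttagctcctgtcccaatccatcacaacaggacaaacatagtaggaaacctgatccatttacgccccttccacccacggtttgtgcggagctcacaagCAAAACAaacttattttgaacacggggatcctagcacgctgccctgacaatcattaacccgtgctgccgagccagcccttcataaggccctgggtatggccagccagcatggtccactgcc
Igfbp3: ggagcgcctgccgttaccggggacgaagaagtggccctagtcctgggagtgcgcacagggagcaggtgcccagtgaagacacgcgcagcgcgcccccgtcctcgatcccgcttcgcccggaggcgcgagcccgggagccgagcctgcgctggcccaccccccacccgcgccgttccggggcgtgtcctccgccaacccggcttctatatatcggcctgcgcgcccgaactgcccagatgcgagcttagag
Igfbp5: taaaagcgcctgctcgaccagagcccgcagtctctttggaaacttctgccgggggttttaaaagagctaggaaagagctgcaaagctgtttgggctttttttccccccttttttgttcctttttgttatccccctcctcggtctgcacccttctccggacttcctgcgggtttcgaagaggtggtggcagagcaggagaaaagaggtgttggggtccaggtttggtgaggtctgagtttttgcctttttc
Igfbp7: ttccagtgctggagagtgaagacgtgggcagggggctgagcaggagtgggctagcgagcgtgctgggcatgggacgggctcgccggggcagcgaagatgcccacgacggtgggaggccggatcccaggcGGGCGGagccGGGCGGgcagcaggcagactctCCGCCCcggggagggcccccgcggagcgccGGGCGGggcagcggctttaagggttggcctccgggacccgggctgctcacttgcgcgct
The capitals in Igf1 and Igfbp1 mark CAAAACA, the core of the insulin response element that FOXO factors bind, which starts 67 bases before the start of Igf1 and 121 bases before that of Igfbp1. These were the only matches among the 11 windows of the 10 members (Igf2 has 2 start sites), and 5.46% of 33469 rat windows of the same length hold 1 on either strand. The capitals in Igfbp7 mark the GC box GGGCGG or its reverse complement, with 4 matches starting 121, 111, 89 and 59 bases upstream, against 30.5% of all windows with at least 1. Single GC boxes were found for Igf1r, Igfbp2 and the second start of Igf2, and TATAAA (12.9% of windows) for Igfbp4. No member window held the full palindromic estrogen response element, GGTCA and TGACC with 3 bases between (0.0239% of windows), the AP-1 motif TGANTCA (6.34%) or the STAT motif TTCNNNGAA (7.67%), which says only that these letters are not in these windows. Motifs were searched on both strands, and no matches of different motifs overlapped. Igfbp7 and Igfbp3 windows had a GC content of 74.4% and 71.6%, against 46.8% for Igf1 and a median of 51.2% over all windows.

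The comparisons with control ask which members differed from vehicle at each dose. Igf1 was lower and Igfbp1, Igfbp3 and Igfbp5 were higher in the groups where a member passed, and in no comparison with control did any of these 4 pass in the opposite direction. A member passed where the adjusted p of edgeR's quasi-likelihood test (Benjamini-Hochberg over 13312 genes) was under 0.05. At BPA 2.5, 4 of 10 members passed (Igf1 lower, Igfbp1, Igfbp3 and Igfbp5 higher), with 11.4% of all genes called, 7.06% higher and 4.39% lower. At BPA 250, Igfbp1 and Igfbp3 rose, with 8.79% of genes called, 4.44% higher and 4.35% lower. At BPA 25000, Igf1 fell and Igfbp1 rose, with 2.32% called, 1.36% higher and 0.962% lower. Igfbp3 was the 1 member that passed at EE2 0.5 (0.556% of genes called, 0.263% higher) and at BPA 25 (1.92% called, 0.954% higher and 0.969% lower). At EE2 0.05 the count was 0, with 2 members at an unadjusted p under 0.05, and 0.0451% of all genes called. There DESeq2 called 1 member beside 0.505% of the genes it tested, and limma voom 1 beside 10.3%. At BPA 2500 it was 0, with 5 members at an unadjusted p under 0.05, and 0% of genes called. There DESeq2 called 1 member beside 0.585% of genes, and limma voom 0 beside 0%. All these comparisons share the same 4 control libraries. The median log2 fold change of the 10 members ran from 0.06 at EE2 0.05 to 0.79 at BPA 25000, beside -0.02 to 0.05 over all genes tested.

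Groups that did not overlap the controls were counted as well. At BPA 2.5 all 4 libraries lay above all 4 controls for 4 members (Igf1r, Igfbp1, Igfbp3 and Igfbp5; 6.45% of all genes) and below them for Igf1 (5.72%). The same 4 members lay above at BPA 25000 (6.16% of genes) and Igf1 below (7.14%). At BPA 2500 5 members lay above, the same 4 and Igfbp7 (4.22%). At EE2 0.5 Igfbp1, Igfbp3 and Igfbp5 lay above (6.8%) and Igf1 below (6.02%). At BPA 250 Igfbp1 and Igfbp3 lay above (9.5%), at BPA 25 Igfbp3 (10.2%) and at EE2 0.05 Igfbp1 (5.71%).

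**Figure D1:**
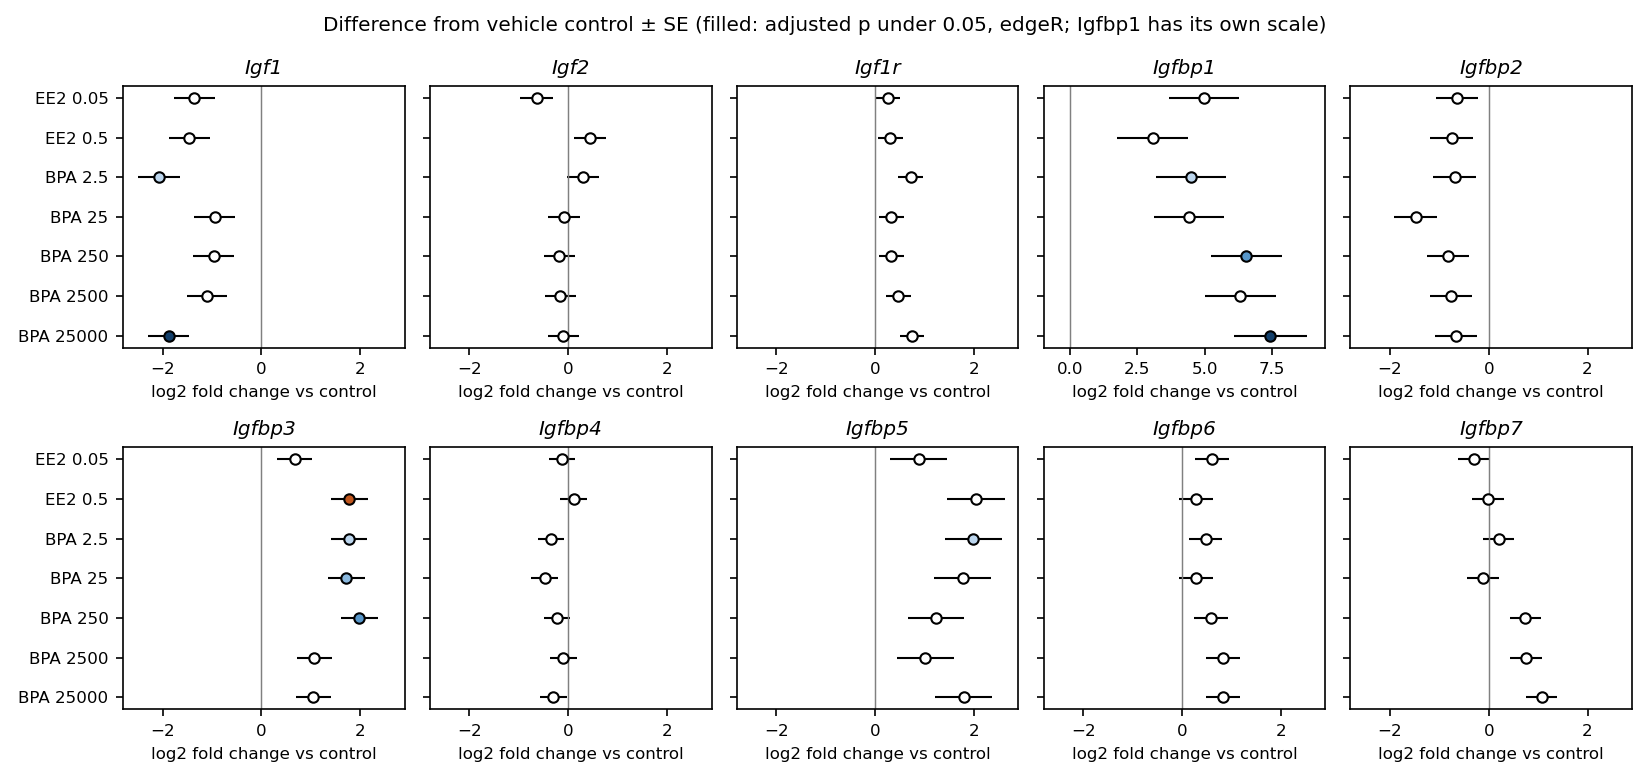
Log2 fold change from control (x axis) of each member in the 7 exposed groups (y axis, dose in µg/kg/day), with the standard error of the edgeR fit as bars and filled points where the adjusted p was under 0.05. The 7 Igf1 points lie left of 0 and the 7 Igfbp1 and Igfbp3 points right of it, while those of Igf2 and Igfbp4 lie on both sides.

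Igf1, the main growth-promoting ligand of the adult system, had a lower mean in every exposed group than in control, and passed at the lowest and the highest BPA dose. The 4 control libraries were at 237, 702, 469 and 355 CPM. The BPA 2.5 libraries were at 80.1, 105, 103 and 130 CPM, and the BPA 25000 libraries at 198, 54.4, 150 and 76.1 CPM. Neither group overlapped the controls, which themselves spread widely. Against a control mean of 441 ± 198 CPM (SD, n = 4), the mean fell to 105 ± 20.3 CPM at BPA 2.5, a log2 fold change of -2.07 (SE 0.43, adjusted p = 0.00393). At BPA 25000 it fell to 120 ± 66.3 CPM, a log2 fold change of -1.88 (SE 0.42, adjusted p = 0.0245).

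The other exposed groups held intermediate Igf1 levels. The 4 EE2 0.5 libraries were at 113, 211, 138 and 181 CPM, all below the controls, with a log2 fold change of -1.46 (SE 0.42) that did not pass (adjusted p = 0.0884) but did with DESeq2, limma voom and only these groups fitted (0.0199, 0.0219 and 0.0441). EE2 0.05 was at 171 ± 58.1, BPA 25 at 229 ± 103, BPA 250 at 225 ± 63.7 and BPA 2500 at 205 ± 111 CPM. Their log2 fold changes were -1.36, -0.95, -0.97 and -1.10, with adjusted p from 0.121 to 0.357. Over the series, 21 of 28 exposed libraries lay below the lowest control and 0 above the highest. In the order of group means, control stood first and BPA 2.5 last, and every neighbouring pair of groups overlapped. Igf1 passed in the mean of the 7 exposed groups against control (log2 fold change -1.40, SE 0.27, adjusted p = 0.0272) and in the F test among all groups (adjusted p = 0.00506). In that F test 4 of 10 members passed, Igf1, Igfbp1, Igfbp3 and Igfbp7, with 31.7% of all genes called. The linear contrast over log10 BPA dose was 0.02 per log10 unit (SE 0.09, adjusted p = 0.911). The F test among the BPA doses did not pass for Igf1 either (adjusted p = 0.0701), and it passed in 3 of 20 fits without 1 library.

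The Igf1 call at BPA 2.5 held in all 8 fits without 1 library of either group but not when the 4 libraries that stood apart were left out (log2 fold change -1.90, adjusted p = 0.0614). At BPA 25000 the call was lost without BPA 25000 library 2 or 4 or control library 2 or 3 (adjusted p = 0.114, 0.0985, 0.103 and 0.072) and when control and BPA 25000 were fitted alone (0.0608), and the mean over exposed groups lost its call without control library 2, 3 or 4. The BPA 25000 call held without the 4 libraries that stood apart (-1.99, adjusted p = 0.0204). Markers of several other cell types moved beside Igf1 at BPA 2.5. For ciliated epithelium 7 of 7 markers were higher, with a summed level of 527, 5, 383 and 5.35 CPM in libraries 1 to 4 against 2.74 to 4.66 CPM in control, and none of them at 0. For stratified epithelium 3 of 6 were higher, with a sum of 24.8 to 37.3 CPM against 1.85 to 5.86 CPM and Krt4 at 0 in control. Higher too were 1 of 8 fat markers (454 to 911 against 210 to 747 CPM), 1 of 6 pericyte markers (611 to 1010 against 416 to 628 CPM) and 1 of 8 macrophage markers (252 to 523 against 269 to 403 CPM), and 1 of 6 markers of cycling cells was lower (82.8 to 147 against 71.8 to 371 CPM), with none of these at 0. The summed level of 9 smooth muscle markers was 17925 to 34354 CPM in control, 10690 to 27694 CPM at BPA 2.5 and 16510 to 21956 CPM at BPA 25000, with 0 of 9 markers called in either group. At BPA 25000, 3 of 6 pericyte markers (781 to 1001 against 416 to 628 CPM) and 1 of 8 fat markers (702 to 817 against 210 to 747 CPM) were higher. The part of these cells in the Igf1 result was not tested.

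Igf2, the ligand that dominates fetal growth and is expressed from the paternal allele, passed in no comparison. It was at 32.7 ± 15.8 CPM in control, where library 2 was at 56.1 CPM and the other 3 between 21.6 and 28.8 CPM. Group means ran from 21 ± 4.66 CPM at EE2 0.05 to 44.3 ± 17.3 CPM at EE2 0.5. The 2 EE2 doses thus held the lowest and the highest mean, with overlapping libraries, and their difference did not pass (log2 fold change 1.08, SE 0.33, adjusted p = 0.384). In the BPA groups the log2 fold changes ran from -0.18 to 0.30 (SE 0.32). Without control library 2 those at BPA 25, 250, 2500 and 25000 turned from negative to positive, at 0.32, 0.23, 0.23 and 0.30. Igf2 overlaps the microRNA gene Mir483, and the use of strand in counting is not given in the sources used here, so its values are uncertain to that extent.

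Igf1r, the receptor through which both ligands signal, lay above all controls in 20 of 28 exposed libraries and below in 0, but passed in no comparison. The controls were at 53.5, 59.2, 34.2 and 52.7 CPM. The BPA 2.5 libraries were at 80.5, 103, 71.4 and 73.2 CPM and the BPA 25000 libraries at 71.7, 103, 68.3 and 92.2 CPM, with no overlap with control in either group. The log2 fold change was 0.72 at BPA 2.5 (SE 0.25, adjusted p = 0.056) and 0.75 at BPA 25000 (SE 0.25, adjusted p = 0.0938). DESeq2, limma voom and the filter of 1 CPM in 16 libraries put the BPA 2.5 difference past the threshold (adjusted p = 0.036, 0.0354 and 0.048). Without the 4 libraries that stood apart it did not pass (0.83, adjusted p = 0.125). Limma voom alone put the BPA 25000 difference past the threshold (0.91, adjusted p = 0.000384). The groups with the highest mean Igf1r, BPA 25000 at 83.7 ± 16.5 and BPA 2.5 at 82.1 ± 14.7 CPM, were the 2 with the lowest mean Igf1.

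**Figure D2:**
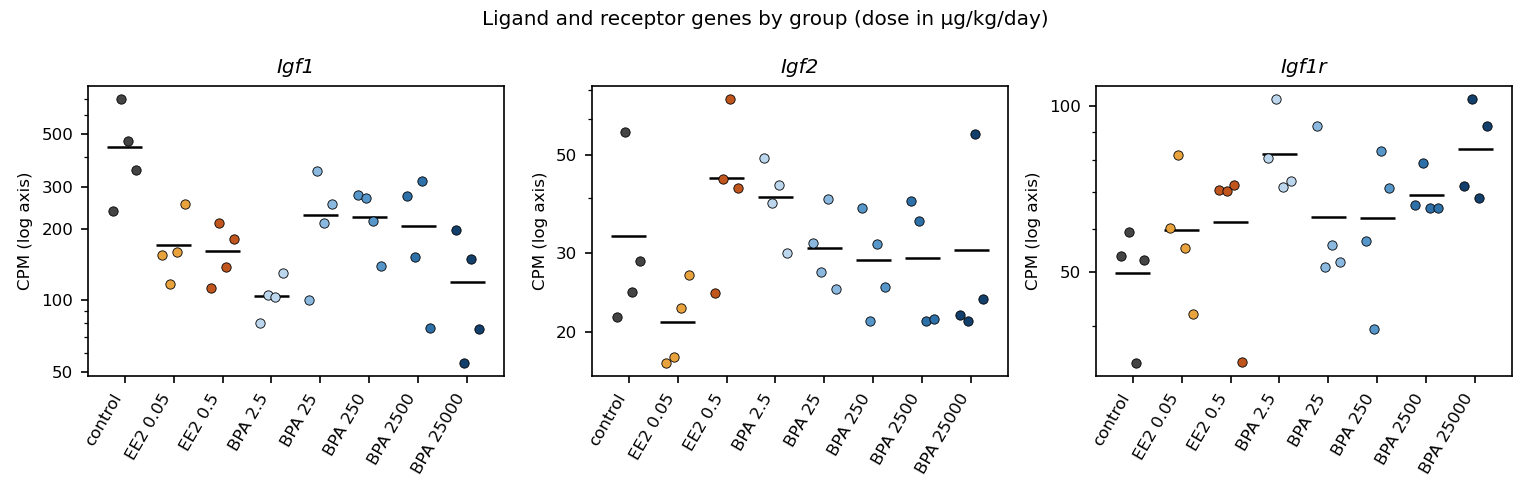
Levels of Igf1, Igf2 and Igf1r in CPM (y axis, log scale) in the 8 groups (x axis, dose in µg/kg/day), 1 point per library with a bar at the group mean. Igf1 control libraries lie between 237 and 702 CPM and the 4 BPA 2.5 libraries between 80.1 and 130 CPM, while the Igf1r controls lie between 34.2 and 59.2 CPM and the BPA 2.5 libraries between 71.4 and 103 CPM.

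Igfbp1, the binding protein gene best known from liver, where insulin represses it, and from human decidua, was close to the counting floor in control and present in nearly all exposed libraries. The 4 controls held 1, 2, 9 and 3 counts, or 0.0862, 0.148, 0.652 and 0.209 CPM. At BPA 250 the libraries were at 43.6, 1.13, 25.7 and 37.9 CPM, and at BPA 25000 at 5.16, 120, 1.7 and 75.3 CPM. Both groups lay above control without overlap, with a wide spread inside each: the BPA 25000 libraries fell into a low pair (1 and 3) and a high pair (2 and 4). Over all genes, libraries 2 and 4 were also more alike than any other pair within a group, and the labels do not say whether they are separate animals. The control mean was 0.274 ± 0.257 CPM. It compares with 27.1 ± 18.9 CPM at BPA 250, a log2 fold change of 6.56 (SE 1.33, adjusted p = 0.00862), and with 50.5 ± 57.3 CPM at BPA 25000, a log2 fold change of 7.46 (SE 1.35, adjusted p = 0.00956). These fold changes rest on 15 counts in all 4 controls together, so their size is imprecise. With controls this low, Igfbp1 passed the filter on low counts only through exposed libraries. A gene kept in this way is bound to lie above control in some group, so its calls and non-overlap are descriptions.

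In the lower BPA groups Igfbp1 was at 2.34, 9.85, 3.73 and 9.94 CPM (BPA 2.5) and 0.594, 12.3, 1.88 and 9.66 CPM (BPA 25). It rose at BPA 2.5 (log2 fold change 4.49, SE 1.30, adjusted p = 0.0251) and did not pass at BPA 25 (4.42, SE 1.30, adjusted p = 0.0574), where library 1 lay below the highest control. BPA 2500, at 11.2, 45.4, 6.63 and 29.8 CPM, lay above control in all 4 libraries but did not pass (log2 fold change 6.34, SE 1.32, adjusted p = 0.159), nor did any gene of the table at that dose. EE2 0.05 was at 9.11 ± 6.7 CPM and EE2 0.5 at 2.4 ± 0.668 CPM, with log2 fold changes of 4.98 (adjusted p = 0.222) and 3.07 (adjusted p = 0.257). In total 27 of 28 exposed libraries lay above all controls. In the order of group means, EE2 0.5 and control were the only neighbouring pair without overlap, for this or any other member.

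Igfbp1 also differed between BPA doses. The linear contrast over log10 dose was 0.79 per log10 unit (SE 0.22, adjusted p = 0.0419), and the F test among the 5 doses gave an adjusted p of 0.0465. In the linear contrast 2 of 10 members passed, Igfbp1 and Igfbp7, both rising, with 4.62% of all genes called, 1.2% rising, and the same 2 passed in the F test, with 31.7% of genes called. The Igfbp1 slope did not pass without the 4 libraries that stood apart (0.74, adjusted p = 0.147) or with only the BPA groups fitted (0.78, adjusted p = 0.128), and it lost its call in 8 of 20 fits without 1 library: BPA 2.5 library 1, 2 or 3, BPA 25 library 1 or 3, BPA 2500 library 4 and BPA 25000 library 2 or 4. The F test lost it in 12 of 20 such fits (adjusted p up to 0.15). In the linear contrast 4 of 7 ciliated and 2 of 6 stratified epithelium markers fell, and 1 of 8 endothelial, 1 of 6 pericyte and 1 of 3 tested liver markers (Alb) rose, and their part in the slopes of Igfbp1 and Igfbp7 was not tested. The comparison of the BPA mean with the EE2 mean did not pass (log2 fold change 1.83, SE 0.63, adjusted p = 0.163).

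Of the Igfbp1 calls against control, that at BPA 250 held in all 8 fits without 1 library, with limma voom alone above the threshold (adjusted p = 0.169). That at BPA 25000 was lost without BPA 25000 library 2 or control library 2 (0.0565 and 0.0502). That at BPA 2.5 was lost without any one of the 4 controls (0.0546 to 0.0711) and by limma voom (0.371). Without the 4 libraries that stood apart Igfbp1 passed at all 5 BPA doses, with log2 fold changes of 5.11, 4.43, 6.23, 6.35 and 7.88 from low to high dose (adjusted p = 0.0272, 0.0282, 0.0138, 0.0263 and 0.00198). That fit was added after seeing the data. It dropped the lowest Igfbp1 libraries of BPA 2.5 (2.34 and 3.73 CPM) and BPA 25000 (1.7 CPM) and the highest of BPA 250 (43.6 CPM). At BPA 25 and 2500 no library was dropped, and the log2 fold changes hardly moved from 4.42 and 6.34. The liver markers Alb, Apoa1, Ttr and Serpina1 together were at 29.7 to 98.5 CPM in control, 30.9 to 40.4 CPM at BPA 250 and 48.2 to 114 CPM at BPA 25000, with 0 of the 3 tested markers called in these 2 groups and Ttr at 0 in control. Higher at BPA 25000 were 3 of 6 pericyte and 1 of 8 fat markers. At BPA 250, where Igfbp3 rose as well, 2 of 7 stromal markers were higher, with a sum of 26477 to 29685 CPM against 9699 to 29226 CPM in control, and 1 of 9 smooth muscle markers was lower (16673 to 21297 against 17925 to 34354 CPM). Also higher there were 1 of 8 fat markers (411 to 1080 CPM), 1 of 8 endothelial markers (617 to 1145 against 687 to 785 CPM) and 1 of 8 macrophage markers (330 to 485 CPM). None of these markers was at 0, and their part in the Igfbp1 and Igfbp3 results was not tested.

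Igfbp3, which carries most IGF in the circulation in a complex with the acid-labile subunit, was higher in nearly all exposed libraries and passed in 4 groups. Controls were at 30.5, 23.5, 29.7 and 38.9 CPM. The EE2 0.5 libraries were at 85.3, 127, 85.1 and 122 CPM, the BPA 2.5 libraries at 143, 88.7, 138 and 48.9 CPM, and the BPA 25 libraries at 164, 72.1, 116 and 52.5 CPM. The BPA 250 libraries were at 186, 51.4, 164 and 82.6 CPM. None of these groups overlapped the controls, although the lowest library of each BPA group lay close to the highest control. Against 30.6 ± 6.32 CPM in control, the means were 105 ± 22.9 CPM at EE2 0.5, 105 ± 44.4 at BPA 2.5, 101 ± 49.4 at BPA 25 and 121 ± 64.3 CPM at BPA 250. Igfbp3 rose by log2 fold changes of 1.78, 1.77, 1.72 and 1.98 in that order (SE 0.37 in each), with adjusted p of 0.0398, 0.004, 0.0273 and 0.00527.

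At the 2 highest BPA doses Igfbp3 was at 64.3 ± 18.9 and 63.4 ± 15.6 CPM, above all controls in all 8 libraries but short of the threshold (log2 fold changes 1.07 and 1.05, adjusted p = 0.306 and 0.107). At BPA 25000 it passed without the 4 libraries that stood apart (1.22, adjusted p = 0.0359), by limma voom (0.0033) and with only these groups fitted (0.0448). EE2 0.05 was at 48.8 ± 11.5 CPM, with library 2 at 34.7 CPM inside the control range. The contrast over BPA dose was -0.21 per log10 unit (SE 0.08) and did not pass (adjusted p = 0.117), nor did the difference between the EE2 doses (1.10, SE 0.36, adjusted p = 0.416). Over the series, 27 of 28 exposed libraries were above all controls. Igfbp3 passed in the mean of exposed groups (1.43, SE 0.30, adjusted p = 0.0272), as did 3 of 10 members (Igf1, Igfbp1 and Igfbp3) beside 1.07% of all genes (0.391% higher and 0.684% lower). Igfbp1 lost that call without any one control, BPA 2500 library 2 or BPA 25000 library 4 (adjusted p up to 0.199) and by limma voom (0.195).

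The Igfbp3 calls at BPA 2.5 and BPA 250 held in all 8 fits without 1 library. That at BPA 250 also held without the 4 libraries that stood apart (log2 fold change 1.70, adjusted p = 0.0139). At BPA 2.5 the log2 fold change was 1.17 without libraries 1 and 3 and the other 2 that stood apart, and it did not pass (adjusted p = 0.0786), nor with only these 2 groups fitted (0.0533). Those 2 libraries held the highest Igfbp3 of the group, 143 and 138 CPM, and the ciliated marker sums of 527 and 383 CPM. The part of these cells in the result was not tested. At EE2 0.5 the call was lost without EE2 0.5 library 2, 3 or 4 or control library 2, 3 or 4 (adjusted p = 0.0609 to 0.195). At BPA 25 it was lost without BPA 25 library 1 or 3 or any one control (0.0515 to 0.158), and the mean over exposed groups without control library 2, 3 or 4. At BPA 25, 1 of 7 ciliated markers was higher, with a sum of 28.8 to 52.3 against 2.74 to 4.66 CPM in control. Higher too were 1 of 8 fat markers (540 to 1661 against 210 to 747 CPM) and 1 of 8 macrophage markers (326 to 562 against 269 to 403 CPM). Lower was 1 of 9 smooth muscle markers (12815 to 18513 against 17925 to 34354 CPM), and their part was not tested. Beside the rise at EE2 0.5, 3 of 6 stratified epithelium markers were higher, with a sum of 31.7 to 230 CPM against 1.85 to 5.86 CPM and Krt4 at 0 in control, and 1 of 8 endothelial markers, with a sum of 799 to 1229 against 687 to 785 CPM, and their part was not tested.

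Igfbp5, a binding protein that associates with extracellular matrix and is common in stroma and muscle, was above all controls in 23 of 28 exposed libraries and passed in 1 group. Controls were at 263, 285, 146 and 261 CPM. The BPA 2.5 libraries were at 435, 2256, 403 and 709 CPM, all above control, with library 2 far above the rest. The group means were 239 ± 63 CPM in control and 951 ± 881 CPM at BPA 2.5, a log2 fold change of 1.99 (SE 0.58, adjusted p = 0.026). Without library 2 the log2 fold change was 1.11 (adjusted p = 0.17), and the call was also lost without control library 2, 3 or 4 (0.0507, 0.0964 and 0.0558), by limma voom (0.117) and with only these 2 groups fitted (0.093). Without the 4 libraries that stood apart it was 2.64 (adjusted p = 0.0207). In library 2 the 8 ovary markers summed to 126 CPM, against 17.1, 18.9 and 31.8 CPM in libraries 1, 3 and 4. They summed to 8.79 to 40.9 CPM in control, and 0 of the 5 tested were called at BPA 2.5. Pericyte markers summed to 1010 CPM in library 2, against 416 to 628 CPM in control. The part of these cells in the Igfbp5 result was not tested.

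Igfbp5 did not pass in the other groups. The BPA 25000 libraries were at 831, 889, 855 and 727 CPM (826 ± 69.8), all above control, with a log2 fold change of 1.79 (SE 0.58, adjusted p = 0.0886). The EE2 0.5 libraries were at 984 ± 361 CPM, also without overlap (log2 fold change 2.04, SE 0.58, adjusted p = 0.0884). In both groups limma voom, DESeq2 and the fit of only these groups put Igfbp5 past the threshold, with adjusted p from 0.00152 to 0.0479. At BPA 25 the values split, at 1801, 262, 931 and 252 CPM, and libraries 2 and 4 lay at the level of control. There DESeq2 and the fit without the 4 libraries that stood apart called Igfbp5 (adjusted p = 0.04 and 0.0438). EE2 0.05, BPA 250 and BPA 2500 were at 438 ± 307, 558 ± 299 and 484 ± 143 CPM and did not pass.

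Igfbp7, a secreted protein of vessels and stroma that binds IGF weakly, was near the control level at both EE2 doses and the 2 lowest BPA doses and higher at the 3 highest BPA doses. Controls were at 420, 606, 440 and 500 CPM. The BPA 250 libraries were at 1128, 371, 1097 and 687 CPM, the BPA 2500 libraries at 824, 1054, 714 and 703 CPM, and the BPA 25000 libraries at 543, 1732, 691 and 1164 CPM. Only BPA 2500 was above control without overlap. Means were 821 ± 361, 824 ± 163 and 1033 ± 537 CPM against 491 ± 83.9 CPM, and the log2 fold changes of 0.74, 0.75 and 1.07 (SE 0.32) did not pass (adjusted p = 0.124, 0.416 and 0.0667). At BPA 25000 Igfbp7 did pass with DESeq2 (0.0183), limma voom (7.3e-05) and without the 4 libraries that stood apart (1.24, adjusted p = 0.0295). The trend over BPA dose passed, at 0.26 per log10 unit (SE 0.07, adjusted p = 0.0358), as did the F test among BPA doses (adjusted p = 0.0263).

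The Igfbp7 trend did not pass without the 4 libraries that stood apart (0.25, adjusted p = 0.143), with only the BPA groups (0.26, adjusted p = 0.123), or in 7 of 20 fits without 1 library: BPA 2.5 library 1, 2 or 3, BPA 25 library 1 or 3 and BPA 25000 library 2 or 4. The F test held in 15 of 20 such fits. The BPA mean was higher than the EE2 mean by 0.68 on the log2 scale (SE 0.19) without passing (adjusted p = 0.088), and 0 of 10 members passed in that comparison beside 0.841% of genes. There 2 had an unadjusted p under 0.05, and DESeq2 and limma voom each called 1, beside 2.63% and 3.83% of genes. In the contrast of the EE2 doses 0 members passed as well, beside 0.015% of genes. There 3 had an unadjusted p under 0.05, and both other tools called 0, beside 0.195% and 0.526% of genes. The 6 pericyte markers summed to 781 to 1001 CPM at BPA 25000 against 416 to 628 CPM in control, with 3 of 6 called higher and none at 0, and their part was not tested. Igfbp7 overlaps Polr2b on the opposite strand, so without a stated strand its counts may include reads of that gene.

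**Figure D3:**
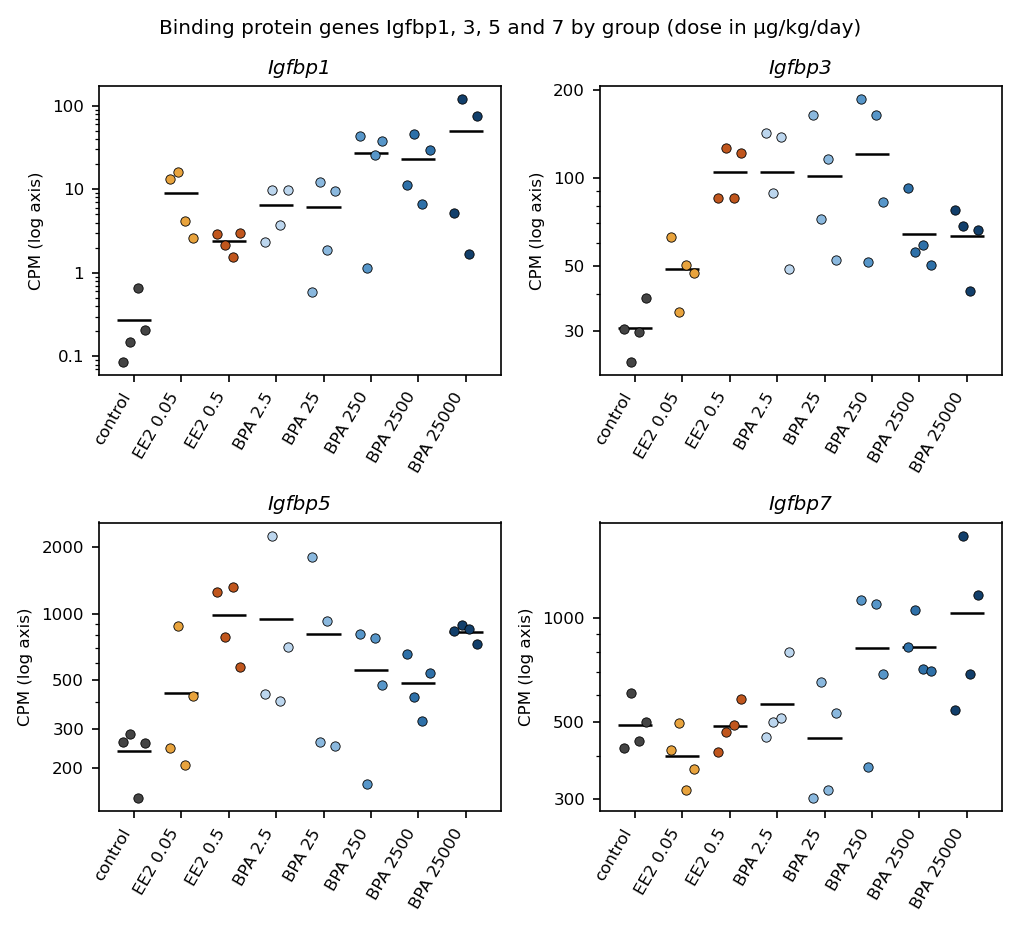
Levels of Igfbp1, Igfbp3, Igfbp5 and Igfbp7 in CPM (y axis, log scale) in the 8 groups (x axis, dose in µg/kg/day), 1 point per library with a bar at the group mean. Igfbp1 controls lie between 0.0862 and 0.652 CPM and the BPA 25000 libraries between 1.7 and 120 CPM, and Igfbp3 is highest in the 4 groups from EE2 0.5 to BPA 250.

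Igfbp2, Igfbp4 and Igfbp6 passed in no comparison. Igfbp2, a carrier that is abundant in fetal tissue, was at 36.5, 142, 58.8 and 65.5 CPM in the controls and lower on average in every exposed group, with 9 of 28 exposed libraries below all controls and 0 above. It was lowest at BPA 25, at 14.2, 26.6, 24.6 and 43 CPM, with a log2 fold change of -1.48 (SE 0.44, adjusted p = 0.0574). DESeq2 and limma voom called that difference (adjusted p = 0.018 and 0.0206), as did the fit without the 4 libraries that stood apart (0.0239). The controls overlapped every group, and control library 2 alone held the highest value of the series.

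Igfbp4, which holds IGF until the protease PAPP-A cleaves it, was at 304 to 398 CPM in the 4 controls, and exposed group means lay between 262 ± 77.8 (BPA 25) and 394 ± 139 CPM (EE2 0.5). Its log2 fold changes lay between -0.48 and 0.11 (SE 0.27), with 16 exposed libraries below and 6 above all controls, and limma voom called it lower at BPA 2.5 (adjusted p = 0.033). Igfbp6, which prefers IGF2, was at 109 ± 35.8 CPM in control and at 195 ± 65.5 and 195 ± 68.1 CPM at the 2 highest BPA doses, with log2 fold changes of 0.83 in both (SE 0.34, adjusted p = 0.396 and 0.169), of which limma voom called that at BPA 25000 (0.00192). All 7 of its group means lay above control, 16 of 28 libraries above all controls and 0 below.

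**Figure D4:**
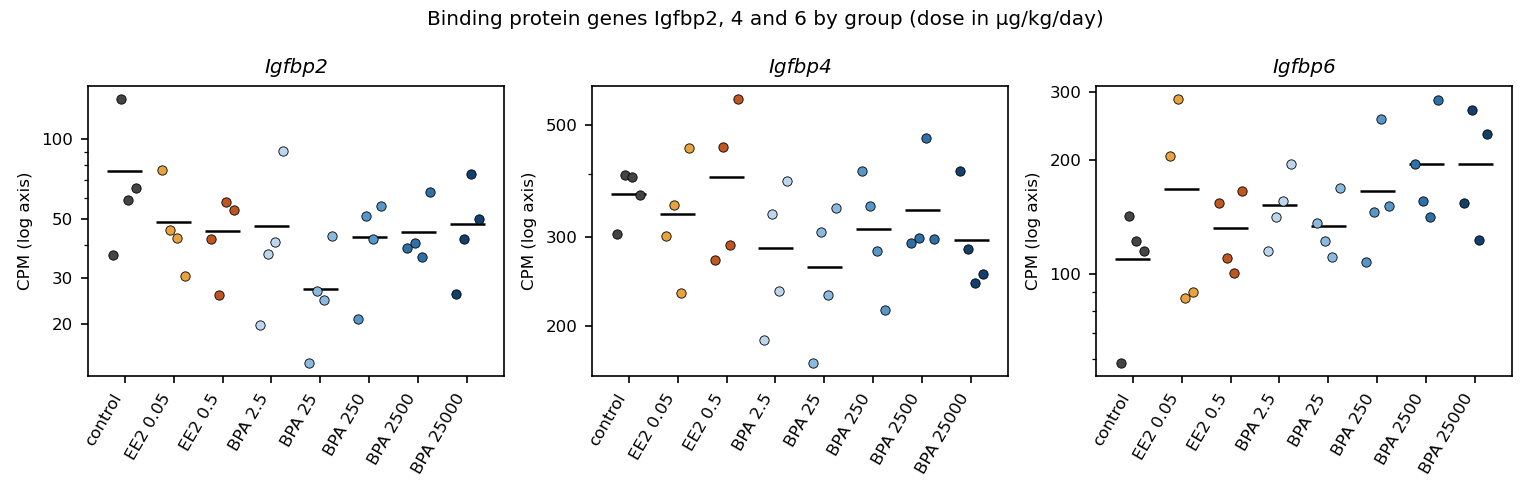
Levels of Igfbp2, Igfbp4 and Igfbp6 in CPM (y axis, log scale) in the 8 groups (x axis, dose in µg/kg/day), 1 point per library with a bar at the group mean. All 7 exposed groups overlap the controls for each of the 3 genes, and BPA 25 holds the lowest Igfbp2 mean, 27.1 CPM.

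How the members varied together was described over the 32 libraries on log2 CPM. The libraries share the same controls, groups and scaling, so these are descriptions without a test. Igf1 and its receptor gene ran in opposite directions (Pearson r = -0.66, Spearman rho = -0.73), also as deviations from group means (r = -0.50). Igf1r and Igfbp5 ran together (r = 0.67, rho = 0.67, deviations 0.66). Igfbp1 and Igfbp7 had the highest r of the 45 pairs, 0.71 (rho = 0.68), and 0.81 as deviations from group means: BPA 25000 libraries 2 and 4, high in Igfbp1, were also the 2 highest of their group in Igfbp7, and BPA 250 library 2 was the lowest of its group in both. Without the 2 libraries farthest from the median of the first-named gene, r was -0.68, 0.71 and 0.66 for these 3 pairs. Igfbp2 and Igfbp3 ran in opposite directions (r = -0.64, rho = -0.59, deviations -0.65, and -0.52 without the 2 farthest).

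Igfbp1 and Igfbp3 are neighbours on chromosome 14 and Igfbp2 and Igfbp5 on chromosome 9. The 2 neighbouring pairs did not run closely together, with r of 0.29 for the first (0.02 as deviations) and -0.31 for the second (-0.22). Igfbp1 was highest at BPA 25000 and Igfbp3 at BPA 250, and of the 2 only Igfbp3 passed at EE2 0.5.

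**Figure D5:**
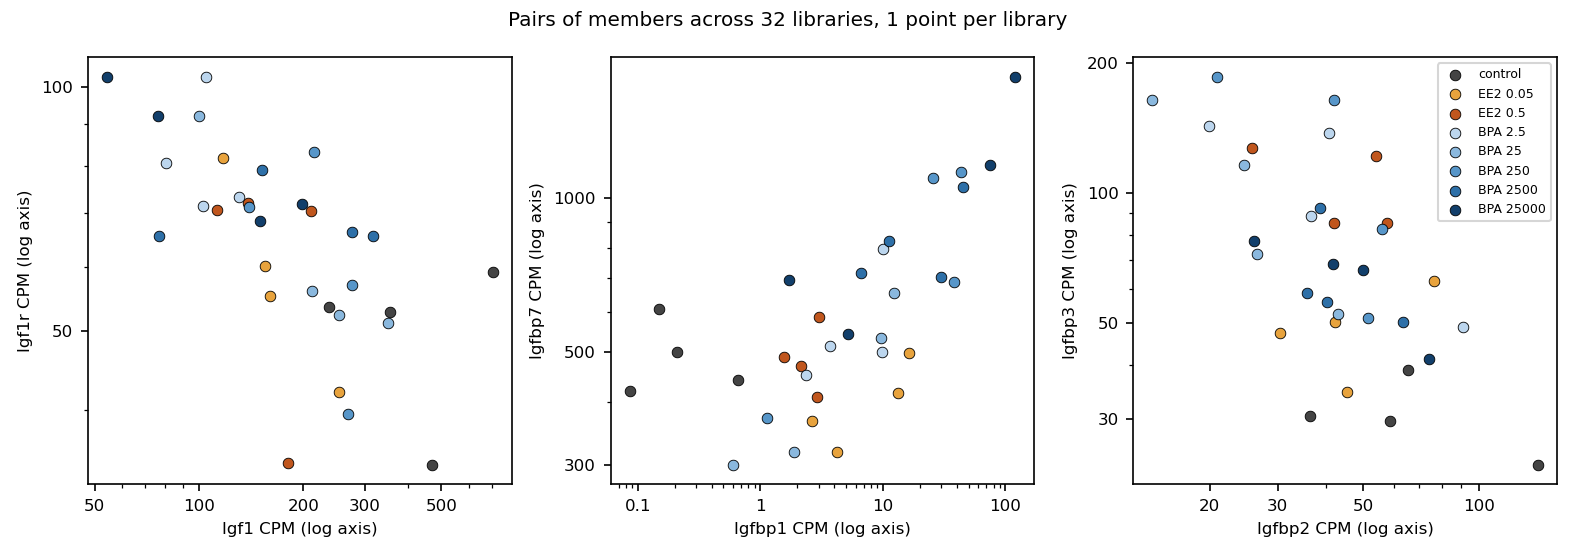
CPM of 3 pairs of members (both axes log scale) in 32 libraries, 1 point per library coloured by group. Igf1r falls as Igf1 rises (r = -0.66), Igfbp7 rises with Igfbp1 (r = 0.71) and Igfbp3 falls as Igfbp2 rises (r = -0.64).

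The genes most like each member over 32 libraries were the 3 with the highest r among 11482 genes with a mean log2 CPM of at least 1. For Igf1 they were Cdk2ap1 (0.89), Ctps1 (0.88) and Nabp1 (0.85), and for Igfbp1 Slc17a3 (0.90), Cyp26a1 (0.90), which breaks down retinoic acid, and Napsa (0.89). The closest to Igf1r included the insulin receptor gene Insr (0.82), after Kif1b (0.83) and Abcc9 (0.83). Igfbp7 was closest to Isyna1 (0.91), which makes inositol phosphate, Igfbp5 to Trim63, Dgki and Sord (0.88 each), Igfbp3 to Lbh (0.83) and Igfbp4 to Ramp2 (0.88). With so many genes compared, a high r for the best few is a property of the search as well.

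The rest of the pathway was followed in 55 listed genes, 52 of them in the table and 48 tested. The count called was 0 at EE2 0.05, EE2 0.5 and BPA 2500, where 0.0451%, 0.556% and 0% of all genes were called. It was 8 of 48 at BPA 2.5 (7 higher, 1 lower), where 11.4% of all genes were called, and 3 at BPA 25 (2 higher, 1 lower), where 1.92% were. At BPA 250 it was 12 (9 higher, 3 lower), beside 8.79% of all genes, and at BPA 25000 it was 2 (both higher), beside 2.32%. Among 11 receptor and adaptor genes, Irs2, the insulin receptor substrate that couples the receptors to PI3 kinase, was at 32.4 ± 8.08 CPM in control. It rose at BPA 2.5, to 107 ± 50.3 CPM (log2 fold change 1.72, SE 0.41, with an adjusted p of 0.00845), and at BPA 250, to 79.4 ± 35.2 CPM (1.29, SE 0.41, with an adjusted p of 0.046). Igf2r, the receptor that takes up and degrades IGF2, rose at BPA 2.5 (0.59, SE 0.16), as did the docking protein gene Gab1 (0.43, SE 0.14). At BPA 250 Irs1 (0.86, SE 0.22), Insr (0.73, SE 0.23) and Grb10, an adaptor that restrains the receptor (0.90, SE 0.20), rose as well, and Grb10 also at BPA 25 (0.87, SE 0.20).

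In the list of the ternary complex and the proteases, 6 genes were tested. Igfals, the gene of the acid-labile subunit, was not among them, with group means of 0 to 0.195 CPM. The serine protease gene Prss23 rose from 13.7 ± 4.19 CPM to 39.6 ± 13.8 at BPA 25, 44.1 ± 12.9 at BPA 250 and 33.8 ± 6.12 CPM at BPA 25000 (log2 fold changes 1.54, 1.69 and 1.31, SE 0.29). Pappa, whose product cleaves IGFBP4, rose at BPA 250 from 1.17 ± 0.726 to 5.91 ± 5.1 CPM (2.34, SE 0.58, adjusted p = 0.0169), with overlapping libraries. In the PI3 kinase branch of 15 genes the kinase gene Akt1 fell from 112 ± 7.52 to 62.9 ± 10.4 CPM at BPA 25 (log2 fold change -0.83, SE 0.17) and 64.1 ± 9.4 CPM at BPA 250 (-0.80, SE 0.17), and Akt2 fell at BPA 250 (-0.72, SE 0.16). Pik3ca, which encodes a catalytic subunit of PI3 kinase, rose there (0.47, SE 0.14), and Foxo4 rose at BPA 2.5 (0.58, SE 0.19). Akt1 at the other BPA doses was at 111 to 113 CPM, level with control.

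Of 7 growth hormone axis genes, Socs2, a feedback inhibitor of that axis, fell at BPA 2.5 (log2 fold change -0.99, SE 0.32) and Stat5b at BPA 250 (-0.48, SE 0.14). H19, the imprinted non-coding gene beside Igf2, rose at BPA 2.5 from 1.13 ± 0.633 to 4.28 ± 3.03 CPM (1.93, SE 0.57, adjusted p = 0.0275). Among 7 tested genes with a related binding domain, the matrix-associated Ccn3 rose from 19.8 ± 3.89 to 132 ± 127 CPM at BPA 2.5, 110 ± 77.8 at BPA 250 and 140 ± 106 CPM at BPA 25000 (2.74, 2.48 and 2.82), and Ccn2 rose at BPA 2.5 and 250 (1.52 and 1.57, SE 0.46). Of the 3 estrogen axis genes in the table, Pgr, the progesterone receptor gene, fell at BPA 2.5 from 265 ± 50.3 to 125 ± 39.6 CPM (-1.08, SE 0.35, adjusted p = 0.045), while Esr1 and Esr2 passed in no comparison with control. In the F test among all groups 15 of 48 tested pathway genes passed, close to the 31.7% of all genes, and Stc2, Pik3r1, Pik3r2, Ghr and Esm1 were among those that passed there without passing against control.

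Of the 25 calls of pathway genes against control, 3 held in every fit without 1 library: Irs2 at BPA 2.5, and Prss23 and Akt1 at BPA 250 (highest adjusted p = 0.0441, 0.0255 and 0.0394). Without the 4 libraries that stood apart 16 of the 25 remained. Igf2r, Gab1, Socs2, H19 and Ccn2 at BPA 2.5 and Insr, Irs1, Irs2 and Stat5b at BPA 250 were lost, as was Pgr at BPA 2.5 (-0.80, adjusted p = 0.341), and the log2 fold change of H19 was then 0.58.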

How the data were processed

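Uterine RNA of 32 libraries was sequenced. The authors deposited 1 table of whole-number read counts per gene, not normalised. The submitters' processing notes list bcl2fastq, TopHat, edgeR and build rn5, with versions, annotation and strand use not given in the sources used here. Symbols were looked up by identifier in a RefSeq table of GRCr8, for names only (17167 matched, 160 with 1.82% of counts did not). Groups came from the labels. These name no separate animals, and p-values therefore reflect the spread among these libraries, which may be technical. No columns were identical. BPA 25000 libraries 2 and 4 were the most alike pair within a group. The chi-square per degree of freedom between their counts was 12.6, beside 25.6 to 174 for the other pairs.

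In R 4.3.3, edgeR 4.0.16 kept genes by filterByExpr (minimum count 10, minimum total 15), scaled by TMM and fitted 1 mean per group over all libraries (quasi-likelihood). Steps were tested on simulated counts. The alternatives were DESeq2 1.42.0, its size factors, limma 3.58.1 (voom with sample weights), other filters, a threshold of 0.1, only the groups compared, and fits without single libraries. A fit without 4 libraries was added after seeing the data. Log2 CPM for correlations used a prior count of 2.

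All 10 members are reported. Pathway genes are named where called in a comparison with control, or among all groups, except 1 that is not reported here. The members and lists were chosen with earlier results of these data known. Promoter sequences came from RefSeq. Greb1 was not analysed here.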

Additional observations from a re-analysis of the deposited data

Results flagged for a closer look

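In 7 of 80 sets of 4 libraries (10 members in 8 groups) 1 library lay far from the other 3, where chance alone flags about 1 set in 20. Igfbp5 was at 2256 CPM in BPA 2.5 library 2, and the call at that dose was lost without it. Igf2 was at 55.7 CPM in BPA 25000 library 3, 1 of the libraries that stood apart. Igf1r was at 34.4 CPM in EE2 0.5 library 4 (low), 92 CPM in BPA 25 library 1 and 78.9 CPM in BPA 2500 library 2. At BPA 2500, Igfbp2 was at 63.3 CPM in library 4 and Igfbp4 at 471 CPM in library 3.

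Igfbp1 and Igfbp7 differed between BPA doses by a test of the difference itself. The adjusted p of edgeR was 0.0419 in the linear contrast over log10 dose and 0.0465 in the F test for Igfbp1, and 0.0358 and 0.0263 for Igfbp7. Of all genes, 4.62% were called in the linear contrast and 31.7% in the F test, where 2 of 10 members passed. Both linear contrasts lost their call without the 4 libraries that stood apart. With only the BPA groups fitted, 0 members passed in either test. The Igfbp1 F test held in 8 of 20 fits without 1 library.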

How the results depend on the processing

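No paired analysis was possible because the labels number the libraries in group order and give groups no shared replicate numbers. The count of members called kept within 1.5 times its value with DESeq2's size factors and with both other filters in all 13 comparisons. The size factors moved the median log2 fold change of all genes by at most 0.027.

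Each count of members is followed by the percentage of all genes that the same fit called. DESeq2 called 1 member at EE2 0.05 (0.505%), 3 at EE2 0.5 (3.8%), 4 at BPA 25 (8.34%), 1 at BPA 2500 (0.585%), 4 at BPA 25000 (5.83%) and 1 between the BPA and EE2 means (2.63%). Limma voom called 1 at EE2 0.05 (10.3%), 3 at EE2 0.5 (9.17%), 2 at BPA 25 (19.9%), 1 at BPA 250 (22.5%), 7 at BPA 25000 (30.9%), 6 in all exposed groups against control (19%), 1 between the agents (3.83%), 4 in the linear contrast (20.3%) and 7 among all groups (69.3%). At a threshold of 0.1 the counts were 3 at EE2 0.5 (2.69%), 4 at BPA 25 (10.1%), 5 at BPA 25000 (5.89%) and 1 between the agents (1.92%). With only the groups compared they were 1 at EE2 0.05 (1.05%), 4 at EE2 0.5 (2.42%), 2 at BPA 2.5 (0.457%), 0 in the linear contrast (0.0151%) and 0 among BPA doses (19.4%). That setting could not differ for all exposed groups and among all groups, and at BPA 25 its filter removed Igfbp1. Without the 4 libraries that stood apart the counts were 2 at BPA 2.5 (3.92%), 4 at BPA 25 (10.2%), 1 at BPA 2500 (0.551%), 4 at BPA 25000 (5.59%), 0 in the linear contrast (1.19%) and 1 among BPA doses (20.9%). The cause was not tested.

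Without 1 library the count ran from 0 to 0 at EE2 0.05, BPA 2500 and between the EE2 doses, 0 to 2 at EE2 0.5, 2 to 4 at BPA 2.5, 2 to 3 at BPA 250, and 4 to 5 among all groups. It ran from 0 to 3 at BPA 25, at BPA 25000, in all exposed groups, in the linear contrast and among BPA doses, and 0 to 1 between the agents (1 without BPA 250 library 2). In all exposed groups it was 0 without control library 2, 3 or 4.

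Among single values, 21 of 1119 changed sign, in each case a difference that did not pass. Igfbp4 at EE2 0.5 was -0.06 by limma voom, Igfbp7 at EE2 0.5 was 0.02 with the filter of 1 CPM in 16 libraries, and Igfbp7 at BPA 25 was 0.00 by limma voom. Without 1 library, the log2 fold change of Igf2 ran from -0.24 to 0.32 at BPA 25, -0.33 to 0.23 at BPA 250, -0.33 to 0.23 at BPA 2500 and -0.55 to 0.30 at BPA 25000. That of Igfbp4 ran from -0.31 to 0.02 at EE2 0.05 and -0.11 to 0.25 at EE2 0.5. That of Igfbp7 ran from -0.11 to 0.11 at EE2 0.5, -0.01 to 0.31 at BPA 2.5 and -0.32 to 0.03 at BPA 25. Calls were gained in 49 and lost in 34 values. With 15 Igfbp1 counts in the controls, depth limits the size of its fold changes.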
